A study of Homo sapiens with 6 samples.

Results

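Complex I, the NADH dehydrogenase of the mitochondrial inner membrane, is assembled from core subunits that carry out electron transfer and proton pumping and from a larger set of accessory subunits that surround and stabilise them. The genes described here are 37 nuclear genes, taken by name from the 20024 genes of the deposited table: 30 accessory subunits and 7 assembly factors whose names begin with NDUFAF. The 7 nuclear-encoded core subunits are not among them and serve for comparison. No measured value was used to choose the genes, but they were chosen with earlier results of these data known.

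The table holds RNA recovered with PTBP1, the polypyrimidine tract-binding protein, which binds CU-rich stretches of RNA and acts in splicing, stability and translation. In such an immunoprecipitation (RIP-seq) an antibody to the protein pulls down the protein with its RNA, which is then sequenced. Cells labelled AC16 and described as human cardiomyocytes were either wild-type (WT, 3 libraries) or carried a knockout of the long noncoding RNA DCRT (DCRT-KO, 3 libraries), and every library was made with the PTBP1 antibody. The series title links DCRT and PTBP1 to dilated cardiomyopathy, and the comparison asks which RNAs differ in PTBP1 RIP without DCRT. How the knockout was made and whether it is 1 clone are not given in the labels. In bulk libraries such as these, fewer cells holding an RNA and less of it per cell cannot be told apart. A replicate number occurs more than once among the WT columns, so these libraries are named a, b and c in column order. Input and control-antibody libraries were not analysed here, so a RIP level cannot be separated into transcript abundance, binding to PTBP1 and RNA carried along unbound.

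The 3 DCRT-KO libraries, with 373354 to 1380722 reads, were shallower than every WT library, with 1798841 to 2589080, so depth and genotype cannot be told apart. The 37 genes together held 1660 to 2427 reads in each WT library and 523, 386 and 1477 in DCRT-KO libraries 1, 2 and 3. Of the 37, 27 had fewer than 10 reads in at least 1 library, and 8 had none in at least 1. No row of the table is named DCRT, so the knockout was not checked. Of 10 cardiomyocyte markers, 6 had no read in any library, including the troponins TNNT2 and TNNI3 and the cardiac myosins MYH6 and MYH7, and none reached a mean of 1 FPKM. The summed level of the 10 was 1.30 to 2.14 FPKM in WT and 0 to 4.78 FPKM in DCRT-KO. Of 7 fibroblast markers 4 had no read, and only PDGFRA reached 1 FPKM. The list's sum was 16.4 to 19.6 FPKM in WT and 8.41 to 11.1 FPKM in DCRT-KO. The endothelial markers, with CDH5 and TEK at 0, summed to 2.01 to 3.03 and 1.38 to 2.69 FPKM, and the blood and immune markers, with PTPRC and HBB at 0, to 0.635 to 2.61 and 0 to 0.335 FPKM. The part of these marker differences in the results below was not tested.

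In the mature enzyme a peripheral arm reaches into the matrix and oxidises NADH, and a membrane arm pumps protons. Accessory subunits clamp these parts together, and several are needed for the complex to form at all. Assembly factors act on intermediates and leave before the enzyme is complete. Heart muscle is rich in complex I, and inherited loss of accessory subunits or assembly factors is known to cause encephalopathy and cardiomyopathy.

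PTBP1 reads pyrimidines, so the stretch of 30 bases richest in C and T was located within 1 exon of the principal transcript in GENCODE 29 (GRCh38), for 35 of the genes (all but NDUFB9 and NDUFAF6). It held 19 to 30 pyrimidines, with a median of 23, and it lay in the 3′ UTR in 19 genes, in coding sequence in 11, in the 5′ UTR in 4 and across the border of coding sequence and UTR in 1. Shown are the genes whose difference passed a test (NDUFB7, NDUFS5, NDUFAF3) and 3 abundant ones that did not (NDUFS6, NDUFB4, NDUFA10), in DNA letters on the transcript strand, 5′ to 3′, with runs of at least 4 pyrimidines in capitals.
NDUFB7: ccaaCCTTCCCgccagactacggCTTCCCC
NDUFS5: ttgCTCCaTCCTatttgTTCTaTTTTCTCT
NDUFAF3: CTTCCCaatgCTTTCaCTCTTatctaCCCT
NDUFS6: CCTTaccggctgCTTCTgtgtgTCTCCTCT
NDUFB4: tttgggCCCCTCaTCTTCatttattatatt
NDUFA10: CCTTTTTCCCTCTCCCCTTCCTTCCCTCCT
The NDUFA10 stretch, in the 3′ UTR at chr2:239959835-239959864 on the minus strand, was made of 30 pyrimidines. That of NDUFV3, also in the 3′ UTR and not shown, was too. Where stretches of a gene tied, the first along the transcript was taken. Those of NDUFB7 (coding, chr19:14571905-14571934, minus strand) and NDUFB4 (coding, chr3:120601213-120601242, plus strand) held 21 and 22. Those of NDUFS5 (chr1:39034603-39034632), NDUFAF3 (chr3:49023211-49023240) and NDUFS6 (chr5:1816180-1816209), all in the 3′ UTR and on the plus strand, held 25, 24 and 23. A pyrimidine-rich stretch is a feature of the letters and was not tested as a PTBP1 site in these data.

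The wild-type and DCRT-KO levels of all members are shown library by library, ordered by the part of the enzyme that each protein belongs to.

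**Figure D1:**
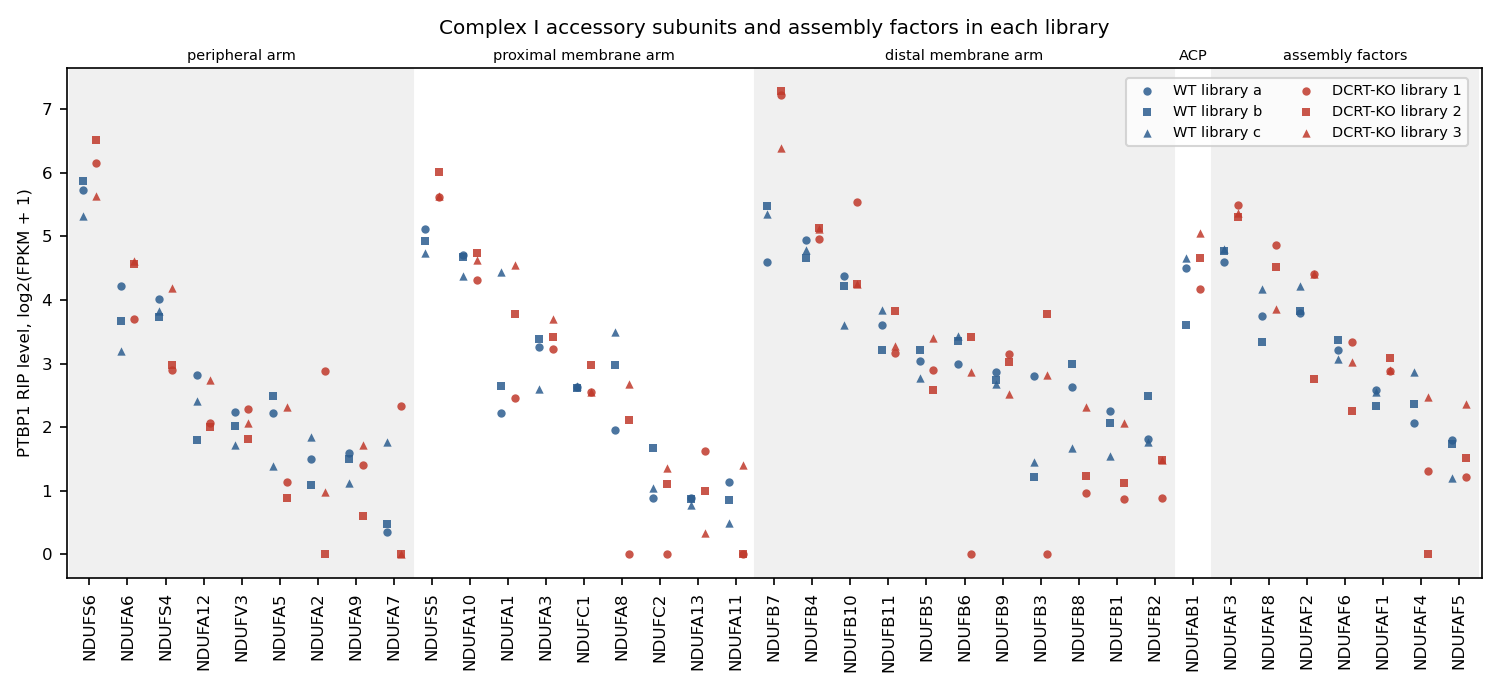
PTBP1 RIP level of each of the 37 genes on the log2(FPKM + 1) scale, with 1 point per library (blue, WT libraries a to c; red, DCRT-KO libraries 1 to 3). Genes are grouped by place in the enzyme (ACP, the acyl carrier NDUFAB1) and ordered by mean level within a group, and the red points of NDUFB7, NDUFS5 and NDUFAF3 lie above all their blue points.

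Levels are in FPKM, fragments scaled to the gene length and to the library total. A filter on the mean over the 6 libraries, 1 FPKM or more, passed 35 of the 37 and 11445 genes in all. These were compared with limma on log2(FPKM + 1), two-sided, at a threshold of 0.05 on p-values adjusted over all 11445 (Benjamini-Hochberg). A positive log2 difference means a higher level in DCRT-KO; differences are on the log2(FPKM + 1) scale, which understates those of low genes, and have their SE. Separate cultures are not stated in the labels, so the p-values cover only the spread among these 6 libraries, which may be technical.

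NDUFB7 and NDUFS5 rose in DCRT-KO RIP and no member fell. These 2 are 5.71% of the 35 tested members, against 2.35% of all tested genes called higher and 1.20% called lower. At an unadjusted p below 0.05, 3 members were higher and 1 was lower, against 12.3% and 11.3% of all tested genes. When the whole reads behind the FPKM values were tested with voom, 2 members passed upward, NDUFB7 and NDUFAF3, and none downward, against 5.85% and 3.40% of all genes. Among the members, 5 had DCRT-KO values all above those of WT and 1 had them all below, together 17.1% of the tested members. Over all tested genes the shares were 15.5% above and 14.8% below, together 30.3%. The numbers of calls are small and depend on the library set. Without DCRT-KO library 3, 3 members rose and 2 fell, against 6.34% and 7.32% of all genes, whereas without any 1 of the WT libraries, or without DCRT-KO library 2, no member passed. Hardly any gene of the whole table passed then either: 0.0351%, 0.0702% and 0% without WT library a, b or c, and 0.568% without DCRT-KO library 2. Without DCRT-KO library 1 NDUFB7 was the member that passed, against 1.79% of all genes.

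**Figure D2:**
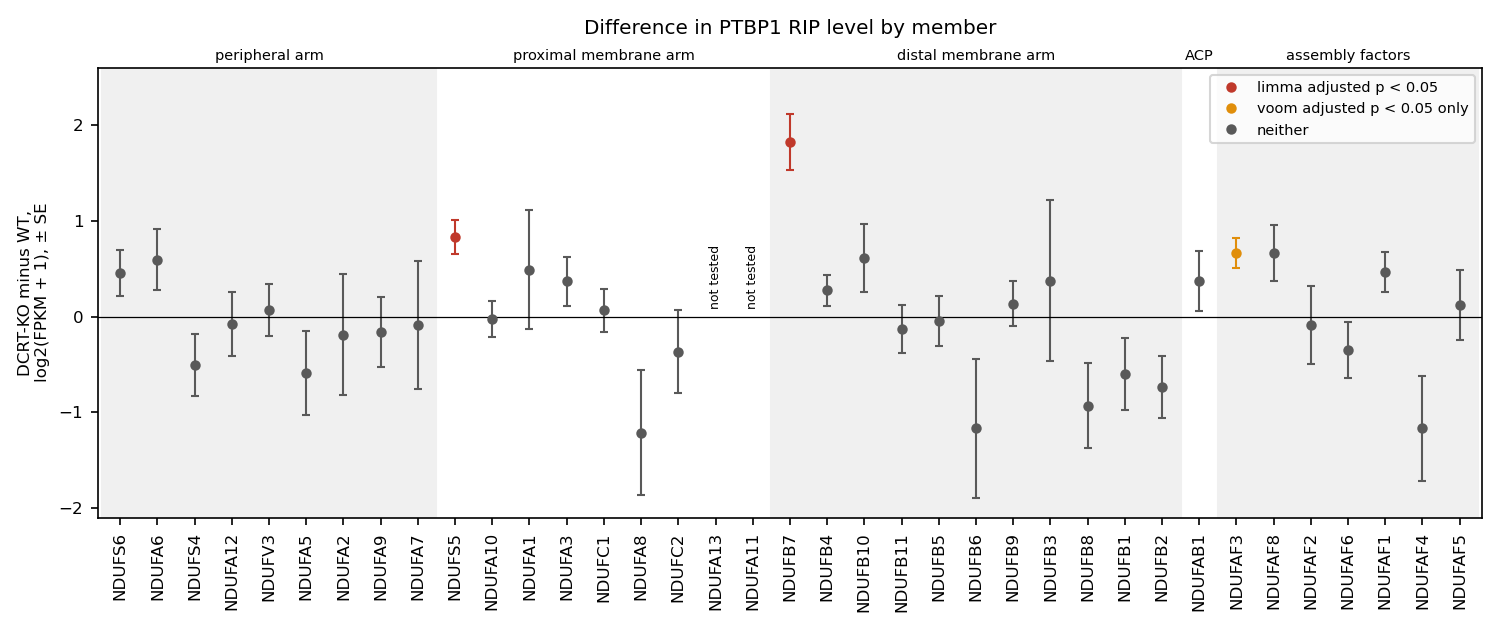
Log2 difference in PTBP1 RIP level, DCRT-KO minus WT, for the 35 tested members, with bars of 1 SE. NDUFB7 (1.82 ± 0.30) and NDUFS5 (0.83 ± 0.18) passed with limma, NDUFAF3 (0.67 ± 0.16) with voom only, and the lowest values, such as -1.21 for NDUFA8, have wide errors.

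NDUFB7, a small subunit of the distal membrane arm that sits on its intermembrane-space side, differed most. WT libraries a, b and c gave 23.1, 43.6 and 39.9 FPKM, and DCRT-KO libraries 1, 2 and 3 gave 149, 155 and 82.6 FPKM. The groups lay apart, with library 3 the lowest of the DCRT-KO group. The means were 35.5 ± 10.9 FPKM in WT and 129 ± 40.2 FPKM in DCRT-KO (SD, n = 3 each), a ratio of 3.62 (log2 difference 1.82 ± 0.30 SE, limma adjusted p = 0.0231; voom adjusted p = 0.00134). Read numbers were modest, 32, 42 and 44 for WT against 42, 31 and 61 for DCRT-KO. NDUFB7 lies on chromosome 19 at 14566078 to 14572066 (minus strand). The median log2 difference of the 154 tested genes within 5 Mb on either side was 0.21, and 107 of them were higher. With trends along GC content and transcript length taken out of every library, the difference of NDUFB7 was 1.26 (adjusted p = 0.0561).

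NDUFB4, of the same arm, was the next most abundant there. It had 29.8, 24.3 and 26.6 FPKM in WT and 30.2, 34.2 and 33.6 FPKM in DCRT-KO. The groups did not overlap, but the difference was small (0.27 ± 0.16 SE, limma adjusted p = 0.328). GENCODE 29 lists 12 pseudogenes named after NDUFB4, and how reads shared with them were assigned is not given in the sources used here. NDUFB10, which like NDUFB7 faces the intermembrane space, had 19.7, 17.6 and 11.2 FPKM in WT and 45.5, 18.03 and 18.1 FPKM in DCRT-KO. DCRT-KO library 1 alone stood above the WT range (0.62 ± 0.35 SE, adjusted p = 0.325).

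Of the 11 distal arm genes, 5 had higher and 6 lower values, with 1 rise, no fall and a median log2 difference of -0.04. NDUFB2 was picked out with its values known, as the only member whose DCRT-KO values all lay below those of WT. It had 2.52, 4.63 and 2.40 FPKM in WT and 0.851, 1.81 and 1.79 FPKM in DCRT-KO (difference on the log2 scale -0.74 ± 0.33 SE, adjusted p = 0.21). The DCRT-KO values rest on 2, 3 and 11 reads. The 30 tested genes within 5 Mb of it on chromosome 7 had the same median, -0.74, with 3 of them higher, and in GENCODE 29 35.1% of its exon bases are also covered by genes on the opposite strand, BRAF among them.
Several other distal arm genes had values that the depth of the shallow libraries cannot separate. NDUFB6 had 6.97, 9.23 and 9.79 FPKM in WT and 0, 9.66 and 6.27 FPKM in DCRT-KO. Its lowest value is 1 library with no read, where 3 reads would be 4.097 FPKM. NDUFB8 averaged 4.78 ± 2.41 FPKM in WT against 2.09 ± 1.65 FPKM for DCRT-KO, where libraries 1 and 2 had 1 read each (-0.93 ± 0.44 SE, adjusted p = 0.243). NDUFB1 likewise had 1 read in each of those libraries (-0.60 ± 0.38 SE, adjusted p = 0.361). NDUFB3 ranged from 0 to 12.7 FPKM within DCRT-KO, on at most 7 reads (adjusted p = 0.815). NDUFB5, NDUFB9 and NDUFB11, whose loss is known in an infant cardiomyopathy, had ratios of DCRT-KO to WT means of 0.988, 1.14 and 0.914, none of which passed.

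In the proximal membrane arm NDUFS5 rose. It is a small subunit on the intermembrane-space face, as NDUFB7 and NDUFA8 are. Its level was 33.8, 29.4 and 25.7 FPKM in WT and 48.4, 63.5 and 48.9 FPKM in DCRT-KO. The groups did not overlap, and library 3 was close to library 1. The means were 29.6 ± 4.09 and 53.6 ± 8.61 FPKM (SD, n = 3 each), a ratio of 1.81 (log2 difference 0.83 ± 0.18 SE, limma adjusted p = 0.0414). With voom, on 48, 29 and 29 WT reads and 14, 13 and 37 DCRT-KO reads, it did not pass (log2 difference 0.80, adjusted p = 0.123). NDUFS5 lies on chromosome 1 at 39026318 to 39034636, where the 92 neighbours within 5 Mb had a median of -0.08. GENCODE 29 lists 6 pseudogenes named after it.

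NDUFA10, a nucleoside kinase-like protein on the matrix side of the proximal arm, had the most reads of any member. Its level was 25.1, 24.7 and 19.7 FPKM in WT and 18.8, 25.8 and 23.8 FPKM in DCRT-KO. The groups overlapped fully (log2 difference -0.03 ± 0.19 SE, adjusted p = 0.945), with 385 to 615 reads per WT library and 91 to 311 per DCRT-KO library. Its 3′ UTR holds the unbroken pyrimidine stretch shown above, within a run of 68 pyrimidines. The 3′ UTR of NDUFV3 holds an unbroken stretch as well.

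NDUFA8 had the lowest log2 difference of all members. It had 2.88, 6.91 and 10.3 FPKM in WT, whereas DCRT-KO gave 0, 3.33 and 5.40 FPKM on 0, 1 and 6 reads (log2 difference -1.21 ± 0.65 SE, adjusted p = 0.292). The groups overlapped, and the SE exceeds the difference of most members. NDUFC1 was nearly constant across WT, at 5.17, 5.16 and 5.24 FPKM, and had 4.88, 6.90 and 4.85 FPKM in DCRT-KO. NDUFA1, NDUFA3 and NDUFC2 had log2 differences of 0.49, 0.37 and -0.37, none of which passed. Of the 7 tested genes of this arm, 4 were higher and 3 lower, and the median was 0.06.
NDUFA11 and NDUFA13 were not tested, because their means were 0.675 and 0.958 FPKM. NDUFA11, a membrane-embedded subunit, counted 15, 7 and 4 WT reads against 0, 0 and 11 DCRT-KO reads. NDUFA13, also known as GRIM-19 and linked to cell death, counted 6, 4 and 4 against 3, 1 and 1. Both share exon bases with another gene on the same strand in GENCODE 29, 9.65% and 20.97% of them.

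No gene of the peripheral arm passed with limma or voom, and none had an unadjusted limma p below 0.05. Of its 9 genes 3 were higher and 6 lower, with a median of -0.09. NDUFS6, a zinc-binding subunit of the NADH-oxidising end, was the second most abundant member. It had 52.2, 57.9 and 39.1 FPKM in WT and 70.4, 90.4 and 48.9 FPKM in DCRT-KO. DCRT-KO libraries 1 and 2 lay above all WT libraries and library 3 within their range (log2 difference 0.46 ± 0.24 SE, adjusted p = 0.283). With both shallow libraries, DCRT-KO 1 and 2, left out, the difference was -0.0042. NDUFA6 had 17.7, 11.8 and 8.22 FPKM in WT and 12.03, 22.7 and 23.5 FPKM in DCRT-KO, and the groups overlapped (0.59 ± 0.32 SE, adjusted p = 0.292). It belongs to the LYR-motif proteins and helps bind the mitochondrial acyl carrier.

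NDUFS4, whose loss in mice gives a Leigh-like encephalopathy, split the DCRT-KO libraries. It had 15.1, 12.3 and 13.2 FPKM in WT, 6.45 and 6.84 FPKM in DCRT-KO libraries 1 and 2, and 17.3 FPKM in library 3. The first 2 lay below every WT library and the last above them all. Over all 6 libraries it did not pass (log2 difference -0.51 ± 0.33 SE, adjusted p = 0.376), and without library 3 it fell by 0.92 (adjusted p = 0.0223), on 4 and 3 reads. NDUFA5 also had its lowest values in DCRT-KO libraries 1 and 2, with 1.20, 0.846 and 3.96 FPKM in DCRT-KO against 3.66, 4.62 and 1.63 FPKM in WT (adjusted p = 0.435). NDUFA9, which stabilises the junction of the arms, NDUFA12 and NDUFV3 had log2 differences between -0.16 and 0.07. NDUFA2 and NDUFA7 had at most 8 reads in any library.

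NDUFAB1, the mitochondrial acyl carrier protein, sits in both arms of the enzyme and also serves mitochondrial fatty acid synthesis. It had 21.7, 11.1 and 24.4 FPKM in WT and 17.1, 24.2 and 32.3 FPKM in DCRT-KO. The groups overlapped (log2 difference 0.37 ± 0.31 SE, adjusted p = 0.493).

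Among the 7 assembly factors none passed with limma, and at an unadjusted p below 0.05 1 was higher and none lower. Their median was 0.12, with 4 higher and 3 lower. NDUFAF3, which acts with NDUFAF4 on the early matrix-side intermediate, lay at the threshold. It had 23.2, 26.3 and 26.9 FPKM in WT and 44.3, 38.5 and 40.2 FPKM in DCRT-KO. The groups were well apart and the replicates close, with means of 25.4 ± 1.99 and 41.0 ± 2.99 FPKM, a ratio of 1.61 (log2 difference 0.67 ± 0.16 SE, limma adjusted p = 0.0503; voom adjusted p = 0.0358). It rests on 115 to 146 reads per WT library and 35 to 135 per DCRT-KO library. NDUFAF3 lies on chromosome 3 at 49020459 to 49023495, where 92 of 131 neighbours were higher (median 0.19). In GENCODE 29 21.7% of its exon bases are covered by DALRD3 on the opposite strand. After removal of the GC and length trends its difference was 0.35 (adjusted p = 0.287).

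Its partner NDUFAF4 did not pass, and its values were lower in DCRT-KO. It had 3.18, 4.15 and 6.28 FPKM in WT and 1.49, 0 and 4.55 FPKM in DCRT-KO, on 2, 0 and 16 reads. The groups overlapped through library 3 (log2 difference -1.17 ± 0.55 SE, adjusted p = 0.237). Without library 3 it fell by 1.77 (adjusted p = 0.0397). All but 1 of the 12 tested genes within 5 Mb of it on chromosome 6 were lower, with a median of -0.75. Whether NDUFAF4 differs from its neighbours was not tested.

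NDUFAF8, which stabilises the arginine hydroxylase NDUFAF5, had 12.4, 9.13 and 17.02 FPKM in WT and 28.3, 22.0 and 13.5 FPKM in DCRT-KO, with library 3 inside the WT range (0.67 ± 0.30 SE, adjusted p = 0.212). NDUFAF5 itself had 2.03 ± 0.651 and 2.45 ± 1.5 FPKM (adjusted p = 0.863). NDUFAF1, of the complex that builds the membrane arm, was picked out with its values known, because its groups did not overlap. It had 4.97, 4.05 and 4.89 FPKM in WT and 6.36, 7.50 and 6.49 FPKM in DCRT-KO (0.47 ± 0.21 SE, adjusted p = 0.225), on 6, 5 and 16 reads in the latter. NDUFAF2, a paralog of NDUFA12, had 14.6 ± 2.72 and 15.5 ± 8.39 FPKM (adjusted p = 0.914), and NDUFAF6 had 8.37 ± 0.979 and 6.68 ± 2.73 FPKM (adjusted p = 0.488).

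Summed over the 37 genes, the RIP level was 396, 393 and 390.1 FPKM in WT and 574, 614 and 534 FPKM in DCRT-KO, means of 393 ± 2.75 and 574 ± 40.3 (SD, n = 3 each). The DCRT-KO sums were all higher, at a ratio of 1.46. FPKM divides by gene length, so short genes such as NDUFB7 (535 bases) weigh more in this sum than in reads. In reads, the members held 2427 of 2589080, 1677 of 1798841 and 1660 of 2062766 in WT libraries a, b and c. In DCRT-KO libraries 1, 2 and 3 they held 523 of 528371, 386 of 373354 and 1477 of 1380722. NDUFB7 alone made up 51.5% of the difference of 181 FPKM in the mean sum, and went from 9.05% of the WT sum to 22.4% of the DCRT-KO sum. Without NDUFB7 the sums were 372, 349 and 350.2 FPKM in WT and 425, 459 and 451 FPKM in DCRT-KO. Without NDUFB7, NDUFS5, NDUFS6 and NDUFAF3, the 4 most abundant members, the other 33 summed to 263, 236 and 259 FPKM in WT and 262, 267 and 313 FPKM in DCRT-KO. These groups overlapped. The FPKM totals of the libraries differ, and as a share of them the members held 0.156% ± 0.00735 in WT and 0.223% ± 0.0133 in DCRT-KO (SD, n = 3 each).

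**Figure D3:**
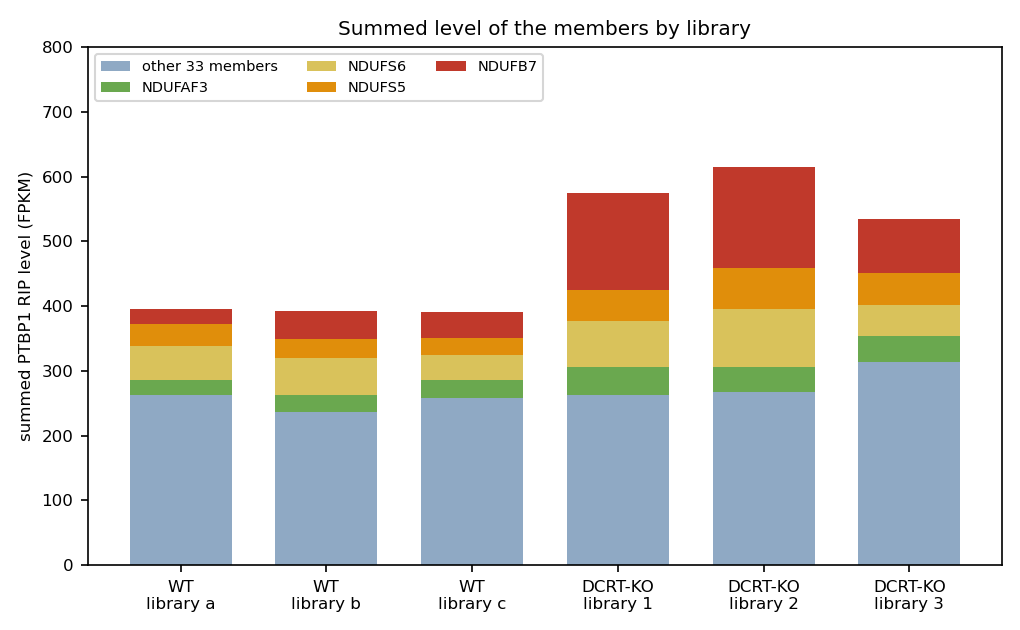
Summed PTBP1 RIP level of the 37 genes in each library, in FPKM, with the 4 most abundant genes drawn apart from the other 33. The bars reach 390.1 to 396 FPKM in WT and 534 to 614 FPKM in DCRT-KO, and the NDUFB7 segment holds 51.5% of the difference.

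The sum and the median of the members differ in what they show. The median log2 difference of the 35 tested members was -0.03, with 17 higher and 18 lower, beside -0.04 for all tested genes. The member median was 0.08 with quantile normalization and 0.13 with voom, beside -0.015 and 0.011 for all tested genes. Split at a mean of 5 FPKM over all libraries, 14 of the 21 more abundant members were higher (66.7%, median 0.37), beside 50.3% and a median of 0.00 for all genes of that level. Of the 14 less abundant members, 3 were higher (median -0.28), beside 42.1% of all genes below 5 FPKM (median -0.11). The DCRT-KO values take part in this split: they alone put NDUFAF1 above 5 FPKM and NDUFA8 below it. Split by the WT mean instead, a choice made after seeing the data, 13 of 21 members at 5 FPKM or more were higher (61.9%, median 0.27), beside 45.3% of all such genes, and 4 of 14 below it (28.6%, median -0.17), beside 50.1%. The contrast between the classes was not tested.

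Levels within the list depend on the length used for scaling. The deposited length was, as a median over the members, 1.54 times that of the principal transcript, against 1.30 times over all genes, and 8.98 times for NDUFA11. If all reads were taken to come from the principal transcript, NDUFB4, NDUFB7 and NDUFS6 would have 83.4, 82.8 and 80.2 FPKM over the 6 libraries, in place of 29.8, 82.2 and 59.8 FPKM. In GENCODE 29, 8 of the 37 share exon bases with a same-strand gene; their median level was 1.38 FPKM, and that of the 29 without such overlap 8.88 FPKM. Levels of the overlapping genes are uncertain, since how reads on shared bases were assigned is not given in the sources used here. This does not touch NDUFB7 or NDUFS5, which share no exon base with another gene, on either strand.

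Across the 35 tested members, the log2 difference went with GC content (Pearson r = 0.55, Spearman rho = 0.50; r = 0.45 over 34 members without NDUFB7). Over the 11425 tested genes with a principal transcript r was 0.41. Genes are not independent replicates, and the members share the libraries and their depths, so these are descriptions. Of 7 members with at least 55% GC, 5 were higher, with a median of 0.62 beside 0.23 for all such genes. Of 11 below 45%, 3 were higher, with a median of -0.35 beside -0.27. NDUFB7 and NDUFAF3, at 65.0% and 64.0%, had the highest GC content of the tested members, and NDUFAF4 and NDUFA5, at 36.3% and 36.4%, the lowest. NDUFS5, at 48.5%, lay near the median of all tested genes, 48.7%. With the trends of GC content and length removed from each library, no member passed, against 1.43% of all genes. NDUFB7 then had a log2 difference of 1.26 and NDUFS5 one of 0.66 (limma adjusted p = 0.0802).

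**Figure D4:**
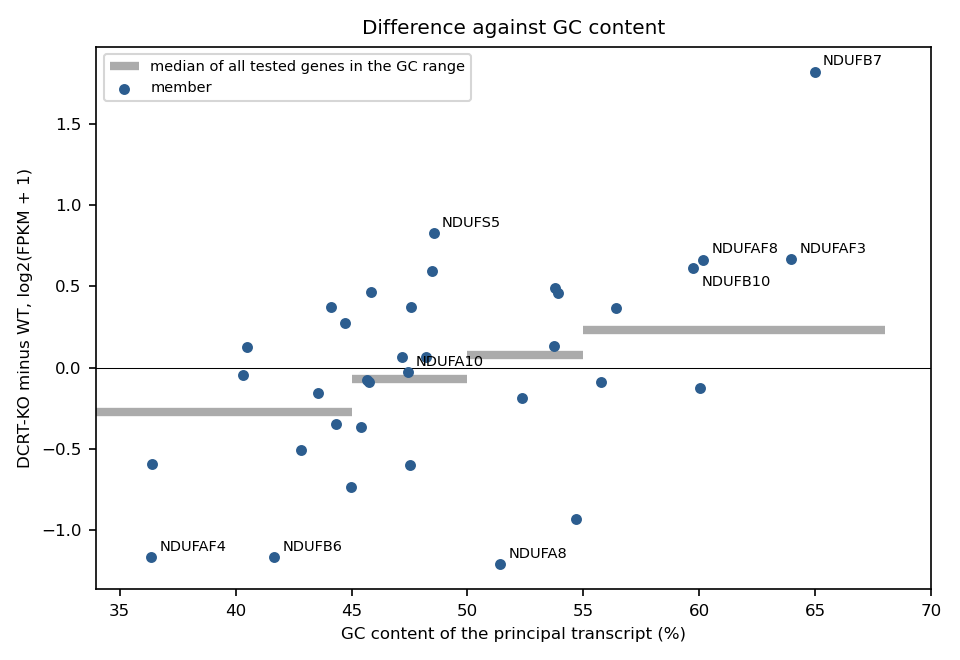
Log2 difference in PTBP1 RIP level against the GC content of the principal transcript for the 35 tested members (blue points), with the median of all tested genes in 4 GC ranges (grey bars, from -0.27 below 45% to 0.23 at 55% and above). The members are scattered around the course of the grey bars, with NDUFB7 at the upper right and NDUFAF4 at the lower left.

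The members' transcripts were short, with a median of 963 bases against 3235 for all tested genes. They held TCTT, written UCUU in RNA and known as a PTBP1 core motif, at a median of 3.98 per kilobase against 4.98. Only the transcript strand was searched, and overlapping matches were counted. The motif was absent from the principal transcripts of 4 members, NDUFB7, NDUFB10, NDUFA11 and NDUFA13, and present in 33. Of all tested genes 99.4% hold it. At a like length of 500 to 1000 bases, 16 of 20 members (80.0%) hold it, beside 92.5% of 495 tested genes. The sets are unlike, since the 20 include NDUFA11 and NDUFA13, which lack the motif and were not tested. Leaving them out would bring the shares closer. The other member medians and shares of transcript features here are likewise over all 37 members. NDUFS5 holds 2 copies in 548 bases and NDUFAF3 5 in 2012, while NDUFA10 holds 27 in 4915 and NDUFA9 66 in 8363. Per kilobase these are 3.65, 2.49, 5.49 and 7.89. The longer CTCTCT was found in 12 members (32.4%) and in 62.6% of all tested genes, whose transcripts are longer. The log2 difference had r = -0.28 with TCTT density over the members and -0.31 over all genes.

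Each member was also set beside its surroundings on the chromosome. The log2 difference of a member and the median of its tested neighbours within 5 Mb had r = 0.51 and rho = 0.45 over the 35 members, and shared a sign in 21 of them. The neighbours share the libraries and, with the member, regional base composition. Neither the correlation nor the share of like signs was computed over all tested genes, so these values cannot be called particular to the members. Picked out with their values known, NDUFS5 was higher among neighbours with a median of -0.08, and NDUFA5 was lower among 17 neighbours with a median of 0.28.

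The rest of the complex was tested in the same fit. Of the 7 core subunits 6 were tested, of which 4 were higher and 2 lower, with a median log2 difference of 0.73. NDUFS8, an iron-sulfur subunit, rose from 6.39 ± 0.668 to 14.9 ± 4.51 FPKM (log2 difference 1.07, limma adjusted p = 0.0465). It had 6.49, 7.01 and 5.68 FPKM in WT and 19.7, 14.2 and 10.7 FPKM in DCRT-KO. Its GC content was 63.3%, and with GC and length trends removed its log2 difference was 0.64 (limma adjusted p = 0.198). It passed in 4 of 17 alternatives. The core subunits had a median GC content of 54.4%, against 47.6% for the members. NDUFV1 (limma adjusted p = 0.069) passed with voom only (adjusted p = 0.0211) and was picked out with its values known. The difference between core and accessory subunits was not tested. None of 11 assembly proteins without an NDUFAF name passed, with 6 higher and 5 lower (median 0.05). At an unadjusted p below 0.05 none of these was higher and 2 were lower, and voom called none. None of the 7 mitochondrially encoded subunits passed with limma (1 lower at an unadjusted p below 0.05). Their median was -0.40, and 6 were lower, of which MT-ND6 passed with voom (adjusted p = 0.0319).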

How the data were processed

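The authors deposited 1 table of FPKM for 20024 genes in 6 libraries, with gene lengths and positions. Per the labels' protocols, libraries were strand-specific and paired-end, and the submitters' processing notes list cutadapt 1.2.1. No source used here gives the aligner, counter or genome build. FPKM scales each library to its read total, so a rise in some genes' reads lowers the values of others. Whole reads were recovered from FPKM times length for 100% of values (tolerance 1e-06). The floor for a count of 0 is 3 reads, or 1.16 to 8.04 RPM, and covers counting error only. Column names placed each DCRT-KO library with its sample but the WT libraries with their group only, and 0 columns were unused. Deposited positions equalled those of GENCODE 29 for 20 of the 37 genes, and deposited lengths equalled its merged exons for 17.

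Tests used limma 3.58.1 in R 4.3.3 with a variance trend and a pseudocount of 1, and voom on the reads scaled by library totals. A check on simulated counts required the right direction of calls and recovery of 4-fold changes. It set no limit on false calls and gave all libraries the same spread, so it does not vouch for the calls made here. Principal transcripts (the best APPRIS class, then the longest coding sequence) were found for 19674 genes. Members and lists were chosen with earlier results of these data known. Described library by library were members past the threshold with limma or voom and the 2 most abundant of each role group; further genes were added after their values were seen, mostly those with overlap-free groups or low counts. Alternatives were another pseudocount (0.1), the filter dropped or raised to 5 FPKM, 3 scalings, no variance trend, thinning to 373354 reads (20 draws), GC and length trends removed by splines with 4 degrees of freedom, each library left out, and, chosen after seeing the data, both shallowest libraries left out. Some results for core subunits are not reported here.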

Additional observations from a re-analysis of the deposited data

How the results depend on the processing

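The count of members that rose, 2 of 35 tested, was 3 of 21 with a filter of 5 FPKM, and 2 with each of 3 scalings and with voom. It was 1 with a pseudocount of 0.1 and as the median of 20 draws thinned to the shallowest library (0 to 3). The count was 0 without a filter, without a variance trend, with GC and length trends removed and with both shallowest libraries left out. Leaving out 1 library gave 0 to 3 rises and 0 to 2 falls. Over all genes, 269 rises among 11445 tested became 384 among 7099 with the filter of 5 FPKM and 34 among 20024 without a filter. They became 669 with voom, 189 with the pseudocount of 0.1, 70 without a variance trend and 103 with the trends removed. Without the shallowest pair there were 31, when thinned 3 to 100, and with 1 library left out 0 to 724. The 137 falls became 179 with the filter of 5 FPKM, 63 without a filter, 389 with voom and 90 with the pseudocount of 0.1. Falls numbered 64 without a variance trend, 60 with the trends removed, 13 without the shallowest pair, 1 to 41 when thinned and 0 to 836 with 1 library left out. NDUFB7 was higher under all 17 alternatives (1.24 to 2.11, adjusted p = 0.00134 to 0.134) and passed in 8; NDUFS5 was higher in all (0.66 to 0.94, adjusted p = 0.0232 to 0.181) and passed in 5. NDUFAF3 passed in 3 (0.35 to 0.71, adjusted p = 0.0297 to 0.287). By role, the proximal arm's 1 rise was 0 with a pseudocount of 0.1, and also with voom. Both it and the distal arm's 1 rise were 0 without a filter, without a variance trend, with the trends removed and with the shallowest pair left out. As a median of the 20 thinned draws, both were 0 (0 to 2 in the proximal and 0 to 1 in the distal arm). With 1 library left out, either arm had 0 to 1 rises, the peripheral arm 0 to 1 falls, and the assembly factors 0 to 1 rises and 0 to 1 falls. The assembly factors' count of 0 rises was 1 with a filter of 5 FPKM and with voom. The 1 rise among core subunits was 3 with that filter and with voom, and 2 with quantile normalization. It was 0 with the pseudocount of 0.1, without a filter, without a variance trend, with the trends removed and without the shallowest pair. As a median of the thinned draws it was 0 (0 to 1), and with 1 library left out 0 to 3 (falls 0 to 1). Other assembly proteins had 0 to 1 rises and 0 to 1 falls with 1 library left out, and mitochondrially encoded subunits 2 falls with quantile normalization and 1 with voom. The member median, -0.03, was 0.37 with the filter of 5 FPKM, 0.13 with voom and 0.28 without the shallowest pair. The medians of all tested genes in these settings were 0.0037, 0.011 and 0.059. With 1 library left out the member median was -0.012 to 0.16, beside -0.075 to -0.00032 for all tested genes. The log2 ratio of sums, 0.55, was 0.45 to 0.55 under the scalings. Why the calls moved was not tested. No paired analysis was possible because 2 of the 3 WT columns share a number.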
